A study of Mus musculus with 6 samples.

Results

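The cell cycle and mitosis genes described here were 46 genes taken by name from the table of read counts, which held 23337 genes. All 46 were in the table, and all 46 were among the 14587 genes that passed the filter on low counts. By role they were 27 mitosis genes, 12 S phase genes, 4 cyclins of G1 and of the G1/S step and 3 inhibitors of cyclin-dependent kinases (CDKs). The RNA came from heart muscle cells of wild-type mice injected with an adeno-associated virus (AAV) on postnatal day 1, and the cells were isolated by perfusion digestion at 4 weeks of age and purified by sorting. The virus carried GFP in the control group AAV-GFP, XBP1S in the group AAV-XBP1S (whose sample labels read AAV-XBP1) and ATF6N in the group AAV-ATF6N (labelled AAV-ATF6), with 2 libraries in each. All groups thus share the virus injection, the sort and the age, and the comparisons ask what each factor of the unfolded protein response changes in these cells. The sources used here do not name the strain, the sex or the promoter that drives the transgene. The labels do not say that the 2 libraries of a group came from separate animals, so p-values here speak only of how far these samples spread, and that spread may be technical.

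A dividing cell copies its DNA in S phase and separates the copies in mitosis, and cyclins that bind CDKs drive each step. S phase genes such as the Mcm helicase are switched on through E2F sites in their promoters, whereas mitosis genes peak later and are repressed in resting cells by complexes that bind a promoter element named the cell cycle genes homology region (CHR), often beside CCAAT boxes. Mouse cardiomyocytes mostly leave the cell cycle soon after birth, and CDK inhibitors are part of that exit.

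The libraries differed in other ways than the delivered gene. Ddx3y, a gene of the Y chromosome, had 11.6 and 21.0 CPM in AAV-GFP, 0.0215 and 0 CPM in AAV-XBP1S, and 94.0 and 89.7 CPM in AAV-ATF6N. Xist, which is expressed from the inactive X chromosome, had 24.6 and 7.88 CPM in AAV-GFP, 43.1 and 20.2 CPM in AAV-XBP1S, and 0.197 and 0.0919 CPM in AAV-ATF6N. The groups thus differed in genes of the sex chromosomes, which cannot be told apart from the delivered gene. Both AAV-GFP libraries held Xist and Ddx3y, and the part of this difference in the mitosis result was not tested. On the component that held most variance (53.4%) the outermost library was AAV-GFP replicate 1, which also had 0.337% of its counts on the ribosomal RNA precursor Rn45s, against 0.0319% to 0.130% elsewhere. Against AAV-GFP replicate 2 alone, the mitosis genes had median log2 fold changes of 2.70 (AAV-XBP1S) and 2.23 (AAV-ATF6N).

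The mitosis genes were scarce in the control libraries and 26 of the 27 stood higher in all 4 libraries with XBP1S or ATF6N than in both with GFP, against 9.01% of all genes tested. In CPM, which scale the counts of a library to its size with the TMM factor applied, the summed level of all 27 was 3.0-fold that of AAV-GFP in AAV-XBP1S and 2.45-fold in AAV-ATF6N. Cenpf, which did not rise, made up 63.7% and 51.3% of that sum in AAV-GFP, and the sum of the other 26, a choice made after the values were seen, was 13.7 and 16.6 CPM in AAV-GFP, 86.1 and 96.6 CPM in AAV-XBP1S and 72.1 and 71.9 CPM in AAV-ATF6N. The groups did not overlap, and without Cenpf the sums of the treated groups were 6.03-fold and 4.75-fold that of AAV-GFP. The summed level of all 12 S phase genes was 90.1 and 109 CPM in AAV-GFP, 161 and 183 CPM in AAV-XBP1S and 125 and 127 CPM in AAV-ATF6N, which came to 1.72-fold and 1.27-fold. These sums are a description, with no test over the list. RNA from a sorted population cannot tell apart more cells with such transcripts from more transcripts per cell.

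The absolute levels were low. In the AAV-GFP libraries 22 and 23 of the 27 mitosis genes lay below 1 CPM, against 1 in each AAV-XBP1S library and 3 and 1 in AAV-ATF6N. The median mitosis gene had 0.427 and 0.519 CPM in AAV-GFP, 2.99 and 3.35 CPM in AAV-XBP1S, and 2.85 and 2.22 CPM in AAV-ATF6N. With 67702482 to 112049342 counts per library, 3 counts came to between 0.0305 and 0.0459 CPM, which sets the counting precision of these values. Spag5 had 4 counts in the AAV-GFP group together, and Ccnb1 had none in AAV-GFP replicate 1. The filter on low counts asked for about 0.128 CPM in 2 libraries. Spag5 reached it in no AAV-GFP library, and Bub1, Ccnb1, Cenpe, Ect2, Kif23 and Top2a reached it in 1, so they passed with the help of the treated libraries. The median S phase gene was at 6.26 and 9.18 CPM in AAV-GFP, 13.0 and 15.8 CPM in AAV-XBP1S, and 11.1 and 10.5 CPM in AAV-ATF6N.

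Levels of different genes were compared per kilobase of exon. On that scale the median mitosis gene had 0.138 and 0.140 CPM per kilobase in AAV-GFP, and the median S phase gene had 2.22 and 3.01 CPM per kilobase. The highest group means per kilobase among the 46 genes belonged to the cyclin gene Ccnd2, at 42.1 CPM per kilobase in AAV-GFP, 42.0 in AAV-XBP1S and 33.3 in AAV-ATF6N. In AAV-GFP and AAV-XBP1S the next were the CDK inhibitors Cdkn1a (29.1 and 18.3) and Cdkn1c (23.5 and 19.2) and then Pcna (14.3 and 16.1). The order of Cdkn1a and Cdkn1c differed between these groups, by less than the spread of their libraries. In AAV-ATF6N Cdkn1a (23.4) was followed by Pcna (11.4), Rrm1 (7.26) and Cdkn1c (7.08). The mitosis gene with the highest mean per kilobase was Cenpf in AAV-GFP (1.87), Cdc20 in AAV-XBP1S (3.56, beside 3.53 for Ube2c) and Ube2c in AAV-ATF6N (5.79).

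**Figure D1:**
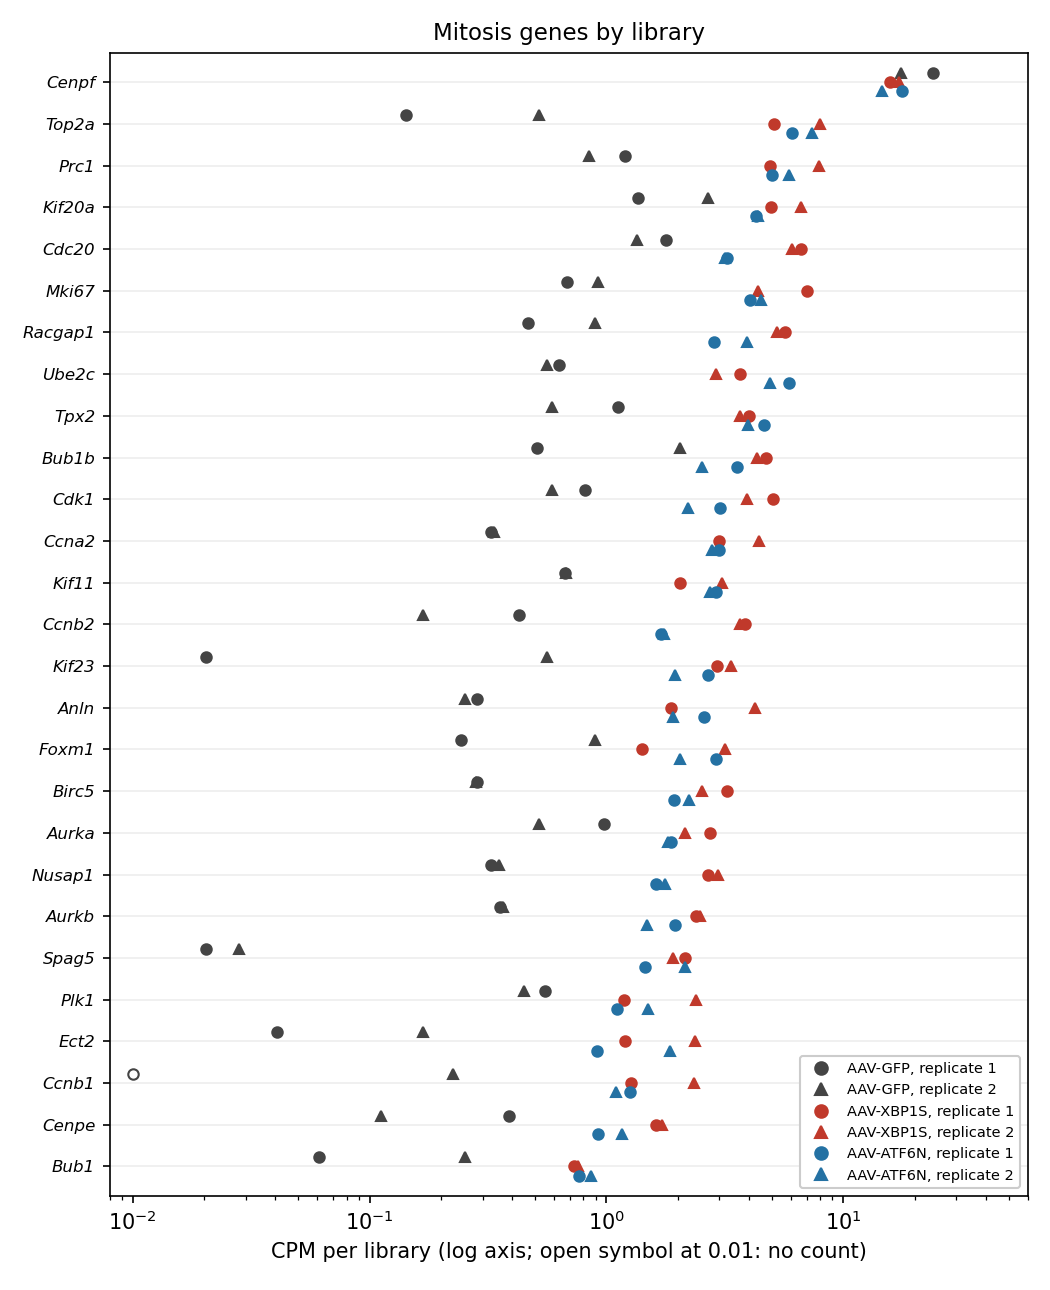
CPM of the 27 mitosis genes in each library on a log axis, ordered by mean level, with 1 symbol per library and an open symbol for the library without a count. The AAV-GFP libraries lie to the left of the treated libraries in every line except Cenpf.

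The promoters are shown because genes of mitosis and of S phase, whose medians lay apart here, are known to carry different elements. RefSeq promoter windows of 300 bases (250 before and 50 after each start, GRCm38.p6) were found for 36 of the 46 genes. The CHR letters TTTGAA, read on both strands, were present in 19 of 24 windows of mitosis genes (79.2%), in 1 of 12 windows of S phase genes (8.33%) and in 17.9% of all 32851 windows of the table. A CCAAT box was present in 87.5% of the mitosis windows, 75.0% of the S phase windows and 37.4% of all windows. The E2F letters GCGGGAA, read on both strands, were present in 0 of 24 mitosis windows, 6 of 12 S phase windows and 4.6% of all. No other form of the E2F site was searched, so a window without these letters may still hold one. CHR and CCAAT letters stood together in 18 of the 24 mitosis windows and in 6.95% of all windows. The 150 bases before the start are printed below for the mitosis genes Spag5 and Birc5 and the S phase gene Mcm6, which had the smallest p-values of their roles in AAV-XBP1S among genes with a window, and for Mki67 and Rrm1, chosen after their matches were seen. Capitals mark the motif letters in either orientation.
Spag5: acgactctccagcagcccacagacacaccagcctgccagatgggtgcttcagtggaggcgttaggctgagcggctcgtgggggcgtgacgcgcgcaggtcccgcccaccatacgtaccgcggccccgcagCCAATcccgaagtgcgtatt
Birc5: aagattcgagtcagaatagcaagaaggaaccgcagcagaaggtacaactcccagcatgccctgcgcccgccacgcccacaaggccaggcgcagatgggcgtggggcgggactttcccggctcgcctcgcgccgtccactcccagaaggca
Mki67: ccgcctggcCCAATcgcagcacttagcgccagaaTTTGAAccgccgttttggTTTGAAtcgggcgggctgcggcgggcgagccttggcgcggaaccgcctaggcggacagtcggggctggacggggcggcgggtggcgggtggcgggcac
Mcm6: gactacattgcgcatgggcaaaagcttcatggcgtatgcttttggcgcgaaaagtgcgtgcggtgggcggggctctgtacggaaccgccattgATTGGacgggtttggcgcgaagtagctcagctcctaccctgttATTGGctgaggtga
Rrm1: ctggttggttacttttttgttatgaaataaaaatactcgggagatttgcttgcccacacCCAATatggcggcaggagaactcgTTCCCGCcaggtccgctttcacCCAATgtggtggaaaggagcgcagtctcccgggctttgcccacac
These stretches lie at chr11:78301441-78301590 (plus strand), chr11:117849087-117849236 (plus), chr7:135716380-135716529 (minus), chr1:128359706-128359855 (minus) and chr7:102441545-102441694 (plus). Mki67 holds the CHR letters from bases -116 and -98 and CCAAT from -141, counted from the start, with further CCAAT boxes from -188 and, reversed, from -166 that lie outside the printed stretch. Spag5 holds CCAAT from -20, and a reversed CCAAT box from -3 and the reversed CHR letters from base 4 after the start lie at or beyond the end of the printed stretch. Birc5 holds none of the 3 motifs in its window. Mcm6 holds the reversed CCAAT box from -57 and -14 and not the E2F letters searched, which leaves other forms of the site unexamined. Rrm1 holds the E2F letters in reverse from -67 between CCAAT boxes from -91 and -45. A match is a description of the letters and not a measured site.

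In AAV-XBP1S against AAV-GFP, 6 of the 46 genes rose and 0 fell by the quasi-likelihood test of edgeR, adjusted over all tested genes by Benjamini-Hochberg, and all 6 were mitosis genes. Over all 14587 genes this test called 0.178% higher and 0.137% lower. Of the 46, 34 had an unadjusted p below 0.05 and a higher level, and 0 had such a p and a lower level, against 6.37% and 5.21% of all genes. DESeq2 called 25 of the 46 higher (23 mitosis genes, Mcm3 and Mcm6) against 2.1% of all genes. The authors' deposited table for this comparison listed 19 of the 46 as higher at an adjusted p below 0.05, all of them mitosis genes, against 0.809% of its genes. Both AAV-XBP1S libraries lay above both AAV-GFP libraries for 26 of 27 mitosis genes and 10 of 12 S phase genes, against 19.1% of all genes tested. The median log2 fold change was 2.71 over the mitosis genes, 0.94 over the S phase genes and -0.01 over all genes tested. Among the 3142 genes with a mean of 0.5 to 5 CPM it was 0.20, and 30.6% of those had both libraries above both controls.

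Spag5, which codes for a protein of the spindle and its poles (chromosome 11, 78301591 to 78322454), had 0.0203 and 0.0281 CPM in AAV-GFP, 2.14 and 1.92 CPM in AAV-XBP1S, and 1.45 and 2.14 CPM in AAV-ATF6N. It was almost undetected in the controls and clear in every treated library. In AAV-XBP1S its log2 fold change was 6.33 (SE 0.58, edgeR adjusted p = 0.0137). Spag5 passed the filter on low counts through the treated libraries alone, and without it 5 of the 46 were called. With no filter its edgeR adjusted p was 2.75e-05 in AAV-XBP1S and 2.88e-05 in AAV-ATF6N, and over the other settings the adjusted p ran from 1.55e-10 (DESeq2) to 0.171 and from 5.10e-10 to 0.0973. The ratio of its group counts, 356 against 4 and scaled to library size, was 86.4 with a 95% interval of 33.4 to 319 that covers counting error only. Ccna2, the cyclin A2 gene of S phase and early mitosis (chromosome 3, 36564865 to 36571996), had 0.325 and 0.337 CPM in AAV-GFP, 2.99 and 4.41 CPM in AAV-XBP1S, and 2.98 and 2.79 CPM in AAV-ATF6N. It rose 11.2-fold in AAV-XBP1S (log2 fold change 3.48, SE 0.37, edgeR adjusted p = 0.0235). Its exons overlap those of Exosc9, and the library kit does not mark strand, so reads in the shared stretch cannot be told apart.

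Birc5, which codes for survivin of the chromosomal passenger complex (chromosome 11, 117849237 to 117855743), had 0.285 and 0.281 CPM in AAV-GFP, 3.25 and 2.54 CPM in AAV-XBP1S, and 1.92 and 2.24 CPM in AAV-ATF6N. Its AAV-XBP1S level was 10.2-fold that of the controls (log2 fold change 3.35, SE 0.38, edgeR adjusted p = 0.0301). Nusap1, which codes for a microtubule-bundling protein of the spindle (chromosome 2, 119618298 to 119650160), had 0.325 and 0.351 CPM in AAV-GFP, 2.70 and 2.96 CPM in AAV-XBP1S, and 1.63 and 1.76 CPM in AAV-ATF6N. The 3 groups were fully separate, with AAV-XBP1S highest. Its log2 fold change in AAV-XBP1S was 3.06 (SE 0.37, 8.37-fold, edgeR adjusted p = 0.0371), and its exons overlap those of Oip5.

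Ube2c, the ubiquitin-conjugating enzyme that works with the anaphase-promoting complex (chromosome 2, 164769929 to 164772902), had 0.630 and 0.561 CPM in AAV-GFP, 3.67 and 2.91 CPM in AAV-XBP1S, and 5.89 and 4.88 CPM in AAV-ATF6N. Here the AAV-ATF6N libraries were the highest. It rose 5.52-fold in AAV-XBP1S (log2 fold change 2.46, SE 0.32, edgeR adjusted p = 0.0447). Mki67, the gene of the proliferation marker Ki-67 that coats mitotic chromosomes (chromosome 7, 135689788 to 135716379), had 0.681 and 0.926 CPM in AAV-GFP, 7.05 and 4.36 CPM in AAV-XBP1S, and 4.05 and 4.50 CPM in AAV-ATF6N. Every treated library exceeded both controls, and the AAV-XBP1S libraries differed from each other more than the others did. Its log2 fold change in AAV-XBP1S was 2.83 (SE 0.37, 7.10-fold, edgeR adjusted p = 0.0447).

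These 6 calls depended on the libraries in the fit. With the AAV-ATF6N libraries left out, 0 of the 46 genes were called, beside 13 of all 14298 genes tested in that fit. The calls were also lost without either 1 of the AAV-XBP1S libraries, and all but Spag5 without either single AAV-ATF6N library. Without either AAV-GFP library more of the 46 passed, and so did more of all genes. The median log2 fold change of the mitosis genes stayed between 2.70 and 3.15 in the 6 fits without 1 library.

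In AAV-ATF6N against AAV-GFP, which shares its control libraries with the previous comparison, 5 of the 46 genes rose and 0 fell by the edgeR test, and these too were mitosis genes. Over all genes the test called 0.35% higher and 0.165% lower. An unadjusted p below 0.05 was found for 29 genes with a higher level and 1 with a lower level, against 6.92% and 6.54% of all genes. DESeq2 called 19 of the 46 higher (18 mitosis genes and Ccne1) against 2.47% of all genes, and Cdkn1c lower. The authors' deposited table listed 18 of the 46 as higher, 17 of them mitosis genes with log2 fold changes of 1.90 to 6.25 there, against 1.77% of its genes. Both AAV-ATF6N libraries lay above both controls for 26 of 27 mitosis genes and 8 of 12 S phase genes, against 27.9% of all genes tested. The median log2 fold change was 2.32 over the mitosis genes, 0.40 over the S phase genes and -0.02 over all genes tested.

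Spag5, which passed the filter only through the treated libraries, rose in AAV-ATF6N with a log2 fold change of 6.15 (SE 0.58, edgeR adjusted p = 0.0153), and the ratio of its group counts was 74.7 with a 95% counting interval of 28.8 to 276. Without Spag5, 4 of the 46 were called. Ube2c rose 9.05-fold (log2 fold change 3.17, SE 0.32, edgeR adjusted p = 0.0223). For Ccna2 the rise was 8.72-fold (log2 fold change 3.12, SE 0.37, edgeR adjusted p = 0.0298). Birc5, at 7.36-fold, had a log2 fold change of 2.87 (SE 0.38, edgeR adjusted p = 0.0401). Top2a, the DNA topoisomerase that untangles sister chromosomes (chromosome 11, 98992947 to 99024189), had 0.142 and 0.519 CPM in AAV-GFP, 5.09 and 7.98 CPM in AAV-XBP1S, and 6.06 and 7.40 CPM in AAV-ATF6N. The treated libraries overlapped each other and lay far above the controls. Top2a was called in AAV-ATF6N (log2 fold change 4.38, SE 0.61, 20.3-fold, edgeR adjusted p = 0.0462), and in AAV-XBP1S its log2 fold change of 4.34 (SE 0.61) had an edgeR adjusted p of 0.0533. In the same comparison Mki67 had a log2 fold change of 2.42 (SE 0.36, edgeR adjusted p = 0.0539) and Nusap1 one of 2.32 (SE 0.36, 0.0616).

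The AAV-ATF6N calls rested on the libraries as well. With AAV-XBP1S left out, 0 of the 46 genes were called, beside 8 of all 14118 genes tested in that fit. The calls were also lost without any 1 of the 4 treated libraries. Without either AAV-GFP library more of the 46 passed, and so did more of all genes. The median log2 fold change of the mitosis genes ran from 2.23 to 2.60 in the fits without 1 library.

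**Figure D2:**
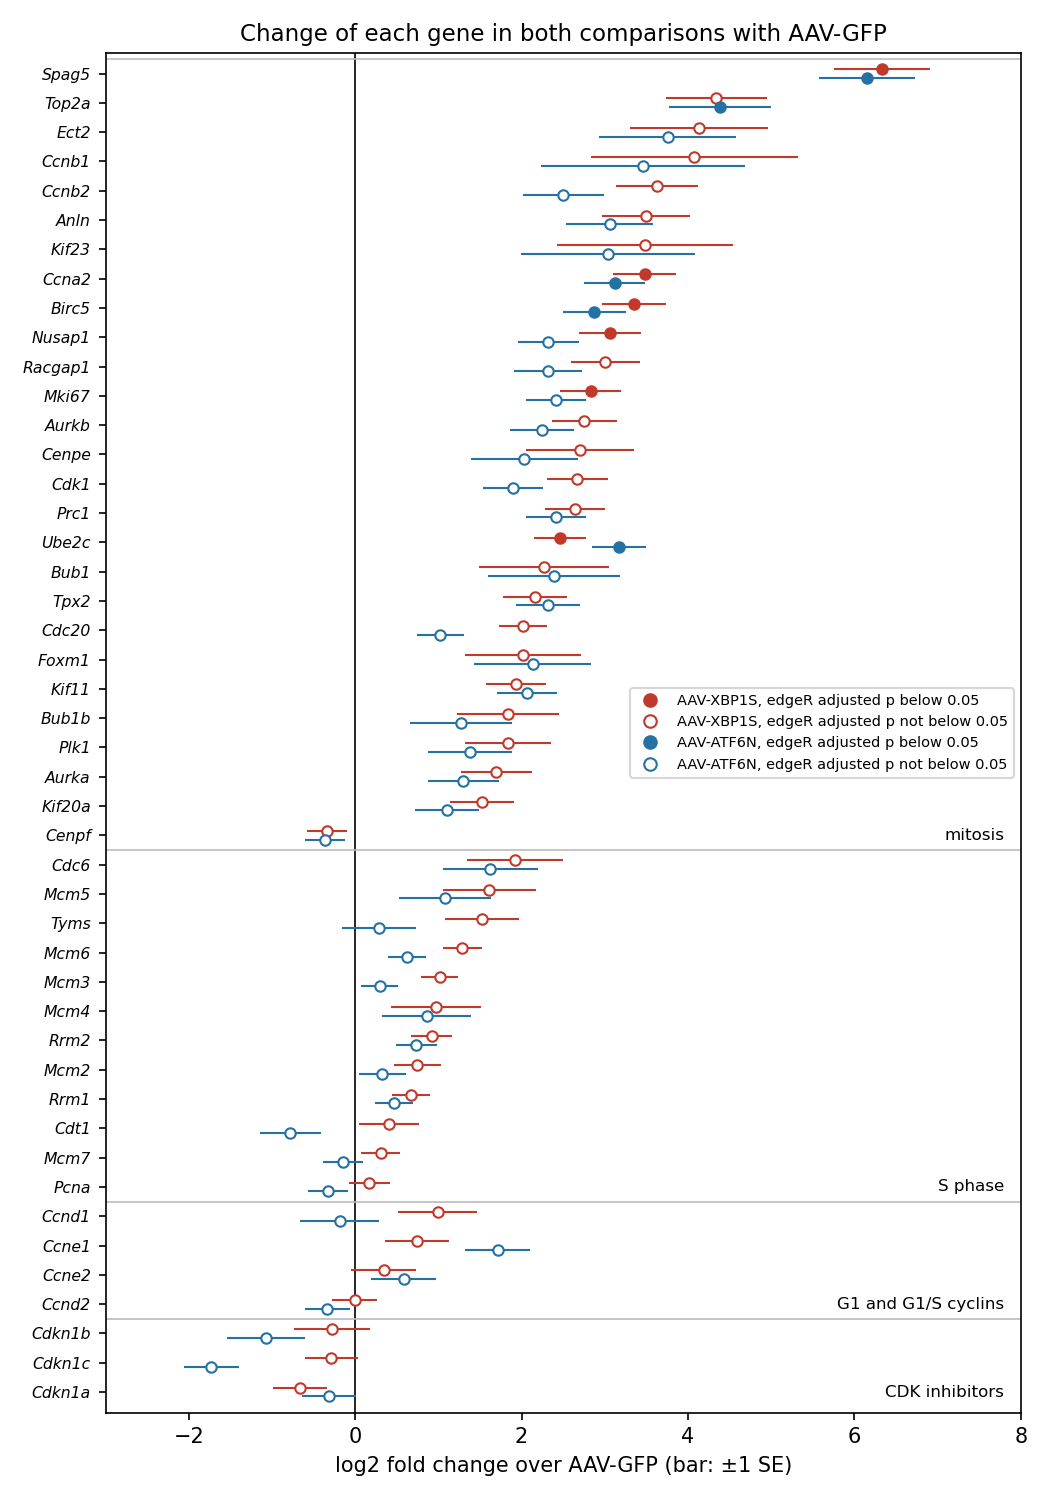
Log2 fold change of each of the 46 genes over AAV-GFP with its standard error, grouped by role, for AAV-XBP1S and AAV-ATF6N. Filled symbols mark the 6 and 5 genes with an edgeR adjusted p below 0.05. All mitosis genes except Cenpf lie to the right of 0 in both comparisons, and the S phase genes lie nearer to 0.

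Among the other mitosis genes, those of the cyclin B kinase and its regulators were uniformly higher without passing the test. Ccnb2, a B-type cyclin, had 0.427 and 0.168 CPM in AAV-GFP, 3.85 and 3.67 CPM in AAV-XBP1S, and 1.70 and 1.75 CPM in AAV-ATF6N. Against the controls its log2 fold changes were 3.63 (SE 0.50, edgeR adjusted p = 0.0513) with XBP1S and 2.50 (SE 0.48, 0.118) with ATF6N. The level of Ccnb2 in AAV-ATF6N lay between the other groups, with no overlap. Ccnb1, the other B-type cyclin, had 0 and 0.224 CPM in AAV-GFP, 1.27 and 2.35 CPM in AAV-XBP1S, and 1.26 and 1.10 CPM in AAV-ATF6N. Cdk1, the kinase that these cyclins activate, had 0.813 and 0.589 CPM in AAV-GFP, 5.05 and 3.92 CPM in AAV-XBP1S, and 3.01 and 2.22 CPM in AAV-ATF6N. Its log2 fold changes were 2.67 (SE 0.37, edgeR adjusted p = 0.0513) and 1.89 (SE 0.36, 0.114). Cdc20, which activates the anaphase-promoting complex, had 1.78 and 1.35 CPM in AAV-GFP, 6.64 and 6.05 CPM in AAV-XBP1S, and 3.22 and 3.15 CPM in AAV-ATF6N. Cdk1 and Cdc20 were thus ordered as Ccnb2 was, with AAV-XBP1S highest and no overlap between groups. Foxm1, the transcription factor of late cell cycle genes, had 0.244 and 0.898 CPM in AAV-GFP, 1.41 and 3.17 CPM in AAV-XBP1S, and 2.91 and 2.04 CPM in AAV-ATF6N. Exons of Cdc20 overlap those of Elovl1, and exons of Foxm1 those of 4933413G19Rik, with the same limit as for Ccna2.

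None of the mitotic kinase and checkpoint genes Aurkb, Aurka, Plk1, Bub1 and Bub1b passed the edgeR test. Aurkb, the kinase of the chromosomal passenger complex, had 0.356 and 0.365 CPM in AAV-GFP, 2.39 and 2.49 CPM in AAV-XBP1S, and 1.95 and 1.49 CPM in AAV-ATF6N, with log2 fold changes of 2.76 (SE 0.39) and 2.25 (SE 0.39). Its counterpart at spindle poles, Aurka, had 0.975 and 0.519 CPM in AAV-GFP, 2.73 and 2.15 CPM in AAV-XBP1S, and 1.87 and 1.82 CPM in AAV-ATF6N. Plk1, a kinase of mitotic entry and cytokinesis, had log2 fold changes of 1.84 (SE 0.51) and 1.38 (SE 0.51). Separation from the controls was thus complete for Aurkb and Aurka, by a larger factor for Aurkb. Bub1, a spindle checkpoint kinase, was the only mitosis gene below 1 CPM in all 6 libraries, at 0.0610 and 0.253 CPM in AAV-GFP, 0.731 and 0.758 CPM in AAV-XBP1S, and 0.764 and 0.857 CPM in AAV-ATF6N. Bub1b, which codes for the checkpoint protein BubR1, had 0.508 and 2.05 CPM in AAV-GFP against 4.73 and 4.33 CPM in AAV-XBP1S and 3.57 and 2.54 CPM in AAV-ATF6N. The controls of Bub1b were far apart, and its standard errors of 0.62 and 0.61 were among the larger ones.

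Genes of the spindle motors, the midzone and cytokinesis lay above both controls in every treated library, as did 9.01% of all genes tested. Prc1, which crosslinks the microtubules of the midzone, had 1.20 and 0.842 CPM in AAV-GFP, 4.92 and 7.91 CPM in AAV-XBP1S, and 5.0 and 5.89 CPM in AAV-ATF6N, with log2 fold changes of 2.65 (SE 0.36, edgeR adjusted p = 0.0513) and 2.41 (SE 0.36, 0.0539). Racgap1, a subunit of centralspindlin, had 0.467 and 0.898 CPM in AAV-GFP, 5.65 and 5.26 CPM in AAV-XBP1S, and 2.85 and 3.92 CPM in AAV-ATF6N, with log2 fold changes of 3.01 (SE 0.41, edgeR adjusted p = 0.0513) and 2.32 (SE 0.41, 0.0908). Kif23, the motor subunit of the same complex, had 0.0203 and 0.561 CPM in AAV-GFP, 2.92 and 3.35 CPM in AAV-XBP1S, and 2.69 and 1.94 CPM in AAV-ATF6N. The controls of Kif23 were far apart, and its standard errors of 1.06 and 1.05 were large. Ect2, the exchange factor that centralspindlin recruits for the contractile ring, had log2 fold changes of 4.13 (SE 0.83) and 3.76 (SE 0.82). Anln, which codes for the ring scaffold anillin, had 3.49 (SE 0.53) and 3.06 (SE 0.52). Kif20a, a motor of the midzone, had 1.52 (SE 0.38) and 1.10 (SE 0.38), the smallest log2 fold changes of the mitosis genes after Cenpf and, in AAV-ATF6N, Cdc20, and its exons overlap those of Brd8 and Cdc23. Kif11, the motor that separates spindle poles, had 1.93 (SE 0.36) and 2.07 (SE 0.36). Tpx2, which activates Aurora A on the spindle, had 2.16 (SE 0.38) and 2.32 (SE 0.39), and Cenpe, a kinetochore motor, had 2.71 (SE 0.65) and 2.03 (SE 0.64). No edgeR adjusted p of Kif23, Ect2, Anln, Kif20a, Kif11, Tpx2 or Cenpe was below 0.05 in either comparison.

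Cenpf, which codes for a large kinetochore protein (chromosome 1, 189640614 to 189688086), was the mitosis gene with log2 fold changes below 0. It had 24.0 and 17.5 CPM in AAV-GFP, 15.7 and 17.2 CPM in AAV-XBP1S, and 17.7 and 14.6 CPM in AAV-ATF6N. Its log2 fold changes of -0.34 (SE 0.24, edgeR adjusted p = 0.639) and -0.36 (SE 0.24, 0.459) did not pass the test. Cenpf was the only mitosis gene above 10 CPM in any library, and its share of the summed CPM of the 27 genes was 15.1% to 19.7% in the treated libraries, far below that in AAV-GFP. With it included, the sums were 37.6 and 34.2 CPM in AAV-GFP, 102 and 114 CPM in AAV-XBP1S and 89.8 and 86.5 CPM in AAV-ATF6N.

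**Figure D3:**
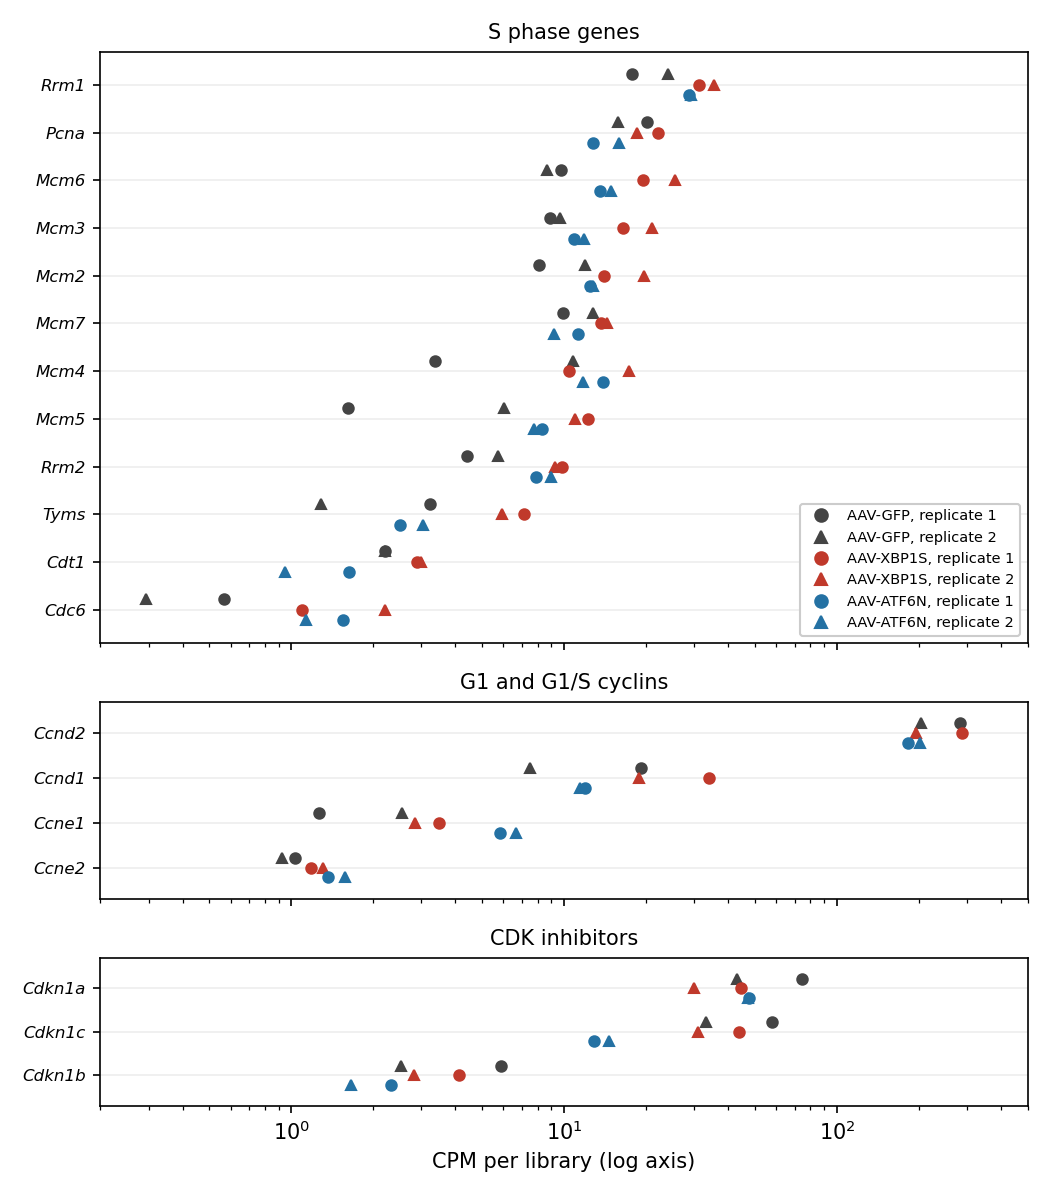
CPM of the S phase genes, the G1 and G1/S cyclins and the CDK inhibitors in each library on a shared log axis. The treated libraries lie closer to the AAV-GFP libraries than they do for mitosis genes, Ccne1 is highest in AAV-ATF6N and Cdkn1c lowest there.

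None of the 12 S phase genes was called by the edgeR test in either comparison with AAV-GFP. An unadjusted p below 0.05 was found for 8 of them with XBP1S and 3 with ATF6N, all at a higher level, against 6.37% and 6.92% of all genes. DESeq2 called 2 and 0 of them higher, against 2.1% and 2.47% of all genes. Mcm6, a subunit of the helicase that opens replication origins (chromosome 1, 128331591 to 128359656), had 9.76 and 8.70 CPM in AAV-GFP, 19.5 and 25.6 CPM in AAV-XBP1S, and 13.5 and 14.9 CPM in AAV-ATF6N. The 3 groups were separate, and its log2 fold changes were 1.29 (SE 0.23, edgeR adjusted p = 0.109) and 0.62 (SE 0.23, 0.347). Mcm3, another helicase subunit, had 8.92 and 9.65 CPM in AAV-GFP, 16.5 and 21.0 CPM in AAV-XBP1S, and 10.9 and 11.9 CPM in AAV-ATF6N, with log2 fold changes of 1.01 (SE 0.23, edgeR adjusted p = 0.186) and 0.29 (SE 0.23, 0.50). Of the helicase genes, Mcm5 had log2 fold changes of 1.61 (SE 0.56) and 1.08 (SE 0.55) on controls of 1.62 and 6.03 CPM, and Mcm4 had 0.97 (SE 0.54) and 0.86 (SE 0.54) on controls of 3.35 and 10.8 CPM. AAV-GFP replicate 1 was the low control for both. Mcm2 had 0.75 (SE 0.28) and 0.33 (SE 0.28), and Mcm7 had 0.31 (SE 0.24) and -0.15 (SE 0.24).

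For the 3 genes of nucleotide supply both AAV-XBP1S libraries lay above both controls, as they did for 19.1% of all genes tested. Rrm2, the regulated subunit of ribonucleotide reductase, had 4.41 and 5.71 CPM in AAV-GFP, 9.86 and 9.25 CPM in AAV-XBP1S, and 7.87 and 8.94 CPM in AAV-ATF6N, with log2 fold changes of 0.92 (SE 0.25, edgeR adjusted p = 0.249) and 0.73 (SE 0.24, 0.316). Rrm1, its large subunit, had 17.8 and 24.2 CPM in AAV-GFP, 31.1 and 35.5 CPM in AAV-XBP1S, and 28.8 and 29.2 CPM in AAV-ATF6N, with log2 fold changes of 0.67 (SE 0.23, edgeR adjusted p = 0.356) and 0.47 (SE 0.23, 0.389). Tyms, thymidylate synthase, had 3.23 and 1.29 CPM in AAV-GFP, 7.15 and 5.92 CPM in AAV-XBP1S, and 2.51 and 3.05 CPM in AAV-ATF6N. The AAV-ATF6N libraries of Tyms lay within the range of the controls, and its log2 fold changes were 1.52 (SE 0.45, edgeR adjusted p = 0.291) and 0.29 (SE 0.45, 0.732).

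Of the licensing factors, Cdc6, which loads the helicase at origins, had 0.569 and 0.295 CPM in AAV-GFP, 1.10 and 2.21 CPM in AAV-XBP1S, and 1.55 and 1.13 CPM in AAV-ATF6N, with log2 fold changes of 1.92 (SE 0.58, edgeR adjusted p = 0.294) and 1.62 (SE 0.57, 0.331). Its partner Cdt1 had 2.22 CPM in both AAV-GFP libraries, 2.90 and 2.99 CPM in AAV-XBP1S, and 1.63 and 0.949 CPM in AAV-ATF6N. Cdt1 was the S phase gene whose treated libraries lay above the controls in AAV-XBP1S and below them in AAV-ATF6N, with log2 fold changes of 0.41 (SE 0.36) and -0.78 (SE 0.37) that did not pass the test. Pcna, the clamp of the DNA polymerases, had 20.2 and 15.8 CPM in AAV-GFP, 22.0 and 18.5 CPM in AAV-XBP1S, and 12.7 and 15.9 CPM in AAV-ATF6N, and its groups overlapped in both comparisons. Without AAV-GFP replicate 1 the median log2 fold change of the S phase genes in AAV-XBP1S was 0.62 in place of 0.94. Without AAV-GFP replicate 2 it was 1.10.

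Of the 4 cyclins of G1 and of the G1/S step, 0 were called by edgeR in either comparison, and an unadjusted p below 0.05 was found for Ccne1 in AAV-ATF6N alone. Ccnd2, a D-type cyclin, had 283 and 203 CPM in AAV-GFP, 289 and 196 CPM in AAV-XBP1S, and 182 and 202 CPM in AAV-ATF6N. Its log2 fold changes were -0.0045 (SE 0.27, edgeR adjusted p = 0.997) and -0.34 (SE 0.27, 0.515). Ccnd1, the cyclin D1 gene, had 19.1 and 7.48 CPM in AAV-GFP, 34.1 and 18.9 CPM in AAV-XBP1S, and 11.9 and 11.5 CPM in AAV-ATF6N. Its libraries were far apart in AAV-GFP and in AAV-XBP1S but not in AAV-ATF6N, and its log2 fold changes were 0.99 (SE 0.48, edgeR adjusted p = 0.487) and -0.19 (SE 0.47, 0.845). Ccne1, the cyclin E1 gene that acts at the start of S phase (chromosome 7, 38097984 to 38107490), had 1.26 and 2.55 CPM in AAV-GFP, 3.49 and 2.85 CPM in AAV-XBP1S, and 5.82 and 6.64 CPM in AAV-ATF6N. The groups were in this order without overlap, and its log2 fold changes were 0.74 (SE 0.39, edgeR adjusted p = 0.524) and 1.71 (SE 0.39, 0.178). For Ccne1 in AAV-ATF6N the authors' deposited table lists 1.72 on the log2 scale (adjusted p = 0.0143), and DESeq2 run here had an adjusted p of 0.00447. Ccne2, the cyclin E2 gene, had 1.04 and 0.926 CPM in AAV-GFP, 1.18 and 1.31 CPM in AAV-XBP1S, and 1.37 and 1.58 CPM in AAV-ATF6N, with log2 fold changes of 0.34 (SE 0.39, edgeR adjusted p = 0.750) and 0.58 (SE 0.39, 0.459).

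The 3 CDK inhibitors all had log2 fold changes below 0 in both comparisons, and 0 of them passed the edgeR test, with an unadjusted p below 0.05 for Cdkn1c in AAV-ATF6N alone. Cdkn1c, which codes for p57 (chromosome 7, 143458339 to 143461050), had 58.0 and 33.1 CPM in AAV-GFP, 43.7 and 31.0 CPM in AAV-XBP1S, and 12.9 and 14.6 CPM in AAV-ATF6N. Both AAV-ATF6N libraries lay below all other libraries. Its log2 fold changes were -0.29 (SE 0.32, edgeR adjusted p = 0.744) with XBP1S and -1.73 (SE 0.33, 0.114) with ATF6N, where DESeq2 gave an adjusted p of 0.000136 and the authors' deposited table lists -1.72 (adjusted p = 0.000231). Cdkn1a, which codes for p21, had 74.7 and 43.0 CPM in AAV-GFP, 44.4 and 29.8 CPM in AAV-XBP1S, and 47.7 and 47.3 CPM in AAV-ATF6N, with log2 fold changes of -0.67 (SE 0.32, edgeR adjusted p = 0.492) and -0.31 (SE 0.32, 0.606). Cdkn1b, which codes for p27, had 5.86 and 2.53 CPM in AAV-GFP, 4.11 and 2.82 CPM in AAV-XBP1S, and 2.33 and 1.65 CPM in AAV-ATF6N, with log2 fold changes of -0.28 (SE 0.46, edgeR adjusted p = 0.832) and -1.07 (SE 0.47, 0.378). AAV-GFP replicate 1 was the highest library for all 3 inhibitors.

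In AAV-ATF6N against AAV-XBP1S, 0 of the 46 genes passed the edgeR test, which called 0.171% of all genes higher and 0.0548% lower. An unadjusted p below 0.05 was found for 2 of the 46 with a higher level in AAV-ATF6N (Ube2c and Ccne1) and 8 with a lower level (Ccnb2, Cdc20, Mcm3, Mcm6, Tyms, Cdt1, Ccnd1 and Cdkn1c), against 13.2% of all genes in either direction. DESeq2 called 0 higher, against 2.2% of all genes, and Cdkn1c lower (adjusted p = 0.00266). Both AAV-ATF6N libraries lay above both AAV-XBP1S libraries for 5 of the 46 genes, against 30.1% of all genes tested, and below them for 27, against 26.8%. For the S phase genes they lay below in 10 of 12 and above in 0. The median log2 difference was -0.42 over the mitosis genes and -0.48 over the S phase genes, against -0.01 over all genes. Ube2c had a log2 difference of 0.71 (SE 0.29, edgeR adjusted p = 0.366), Ccnb2 one of -1.12 (SE 0.44, 0.347), Cdc20 one of -0.99 (SE 0.28, 0.188) and Cdkn1c one of -1.44 (SE 0.33, 0.125).

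Of 45 further mitosis genes outside the 46, 1 was called by edgeR in each comparison with AAV-GFP. An unadjusted p below 0.05 was found for 28 higher and 0 lower with XBP1S, against 6.37% and 5.21% of all genes. With ATF6N it was 24 higher and 1 lower, against 6.92% and 6.54%. DESeq2 called 23 and 19 higher, against 2.1% and 2.47% of all genes. Pbk, a mitotic kinase, had 0.102 and 0.0561 CPM in AAV-GFP, 1.87 and 1.66 CPM in AAV-XBP1S, and 1.23 and 0.919 CPM in AAV-ATF6N and rose in AAV-XBP1S (log2 fold change 4.43, SE 0.57, edgeR adjusted p = 0.0447). Pbk lay below the filter cutoff of about 0.128 CPM in both AAV-GFP libraries, so it passed through the treated libraries alone. Other genes of this list may have passed in that way, and their number is not given here. The counts over the 45 are thus a description only. Kif4, a chromosome-bound motor, had 0.325 and 0.309 CPM in AAV-GFP, 2.04 and 2.37 CPM in AAV-XBP1S, and 3.18 and 2.01 CPM in AAV-ATF6N and rose in AAV-ATF6N (log2 fold change 3.03, SE 0.42, edgeR adjusted p = 0.0458). In both comparisons the treated libraries lay above both controls for 34 of the 45, against 19.1% and 27.9% of all genes, and the medians were 2.09 and 2.02. The sum of the 45 was 465 and 310 CPM in AAV-GFP, 432 and 360 CPM in AAV-XBP1S, and 350 and 355 CPM in AAV-ATF6N. Every treated library thus lay within the range of the controls, unlike the sum of the 27 mitosis genes. Pttg1 (securin) and Cenpa (the centromeric histone) were, like Cenpf, abundant in the controls and had log2 fold changes below 0: -0.48 (SE 0.34) and -0.57 (SE 0.34) for Pttg1, and -0.13 (SE 0.29) and -0.33 (SE 0.29) for Cenpa. Of 35 further S phase genes 0 were called by edgeR in either comparison, with medians of 0.47 and 0.17 and with 22 and 14 of the 35 above both controls, against 19.1% and 27.9% of all genes. An unadjusted p below 0.05 was found for 11 higher and 1 lower of these with XBP1S and for 8 higher and 2 lower with ATF6N, where the shares of all genes were 6.37% and 5.21%, and 6.92% and 6.54%. DESeq2 called 8 and 7 of them higher, against 2.1% and 2.47% of all genes. Their summed level was 452 and 415 CPM in AAV-GFP, 440 and 432 CPM in AAV-XBP1S, and 385 and 380 CPM in AAV-ATF6N. That sum lay within the range of the controls in AAV-XBP1S and below it in AAV-ATF6N. Exo1, a DNA repair nuclease, had no count in either AAV-GFP library, 0.666 and 1.78 CPM in AAV-XBP1S, and 0.222 and 0.367 CPM in AAV-ATF6N. Dtl, a ubiquitin ligase adaptor of S phase, had 0.0406 and 0.0561 CPM in AAV-GFP, 0.494 and 1.83 CPM in AAV-XBP1S, and 1.74 and 1.81 CPM in AAV-ATF6N. Pold1, the catalytic subunit of DNA polymerase delta, had log2 fold changes of -0.70 (SE 0.26, edgeR adjusted p = 0.391) and -0.57 (SE 0.26, 0.382), and Dut, which removes dUTP, had -0.55 (SE 0.32, 0.563) and -0.74 (SE 0.32, 0.378). Of 27 genes of G1 control and of the E2F, RB and MuvB families 0 were called by edgeR, and their medians of 0.07 and 0.15 lay near that of all genes. An unadjusted p below 0.05 was found for 5 higher and 0 lower with XBP1S, against 6.37% and 5.21% of all genes. With ATF6N it was 6 higher and 1 lower, against 6.92% and 6.54%. DESeq2 called 2 higher in each comparison, against 2.1% and 2.47% of all genes, among them Mybl2 in both and E2f2 with XBP1S. Mybl2, which joins the MuvB complex at mitosis promoters, had 0.112 and 0.0140 CPM in AAV-GFP, 1.55 and 1.01 CPM in AAV-XBP1S, and 0.764 and 0.903 CPM in AAV-ATF6N, with log2 fold changes of 4.24 (SE 0.87, edgeR adjusted p = 0.153) and 3.62 (SE 0.86, 0.187). Like Pbk, the genes Exo1, Dtl and Mybl2 lay below the filter cutoff in both AAV-GFP libraries and passed through the treated libraries alone. E2f2, an activating E2F factor, had 2.78 (SE 0.76) and 2.35 (SE 0.75), while the CDK inhibitor genes Cdkn2b and Cdkn2c had -2.28 (SE 1.20) and -0.68 (SE 1.13), and -0.49 (SE 0.26) and -0.86 (SE 0.27), none of them past the edgeR test.

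**Figure D4:**
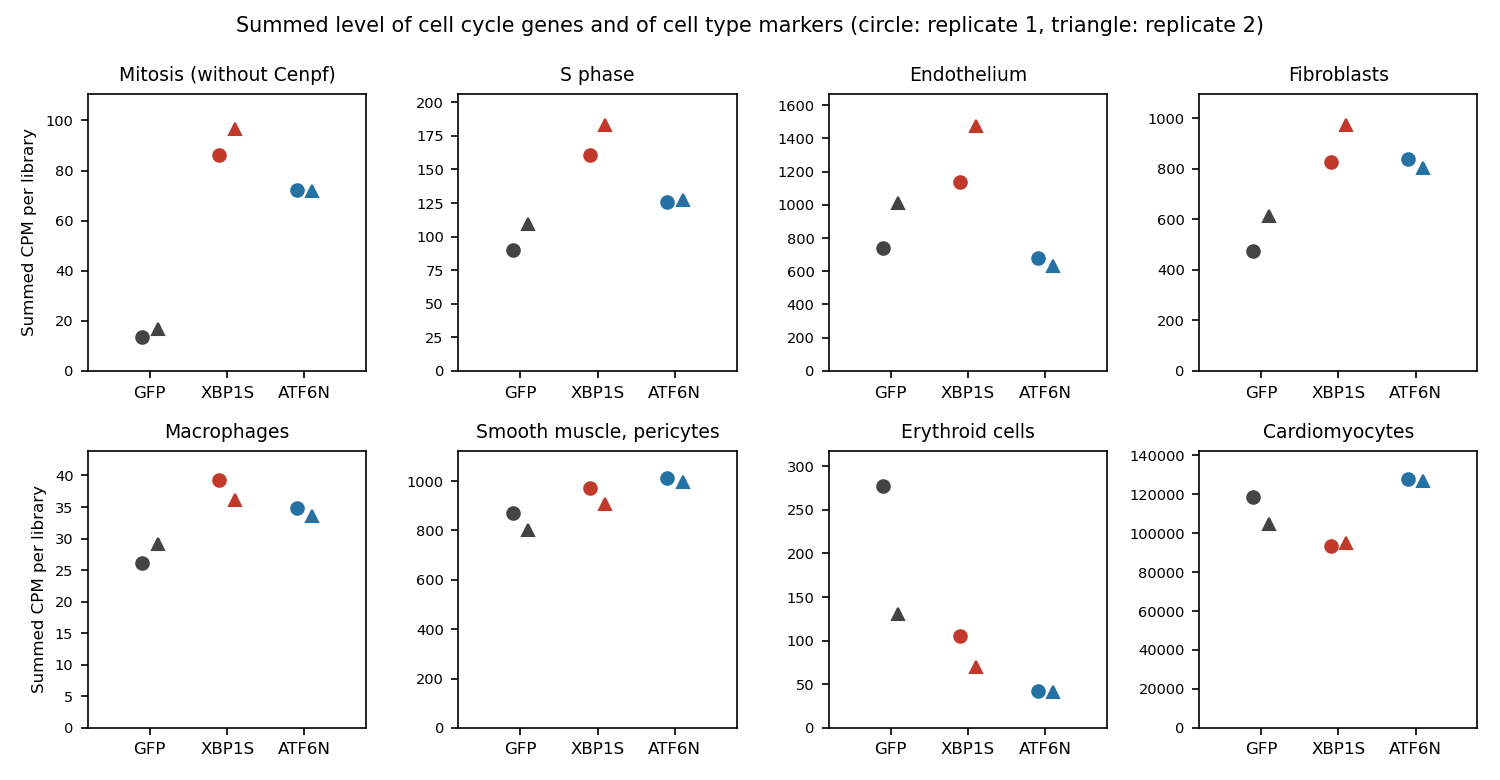
Summed CPM per library of the mitosis genes without Cenpf, the S phase genes and 6 lists of cell type markers, each on its own axis from 0. The mitosis sum separates AAV-GFP from both treated groups, and the endothelial sum is highest in AAV-XBP1S and lowest in AAV-ATF6N. The fibroblast and macrophage sums are higher in both treated groups, which does not hold for every marker.

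Markers of cell types that can divide in the heart differed in the same libraries, and their part in the mitosis result was not tested. The sum of 9 fibroblast markers was 476 and 611 CPM in AAV-GFP, 825 and 972 CPM in AAV-XBP1S, and 838 and 801 CPM in AAV-ATF6N, and 0 of the 9 were called in either comparison. Their treated libraries lay above both controls for 6 of the 9 in AAV-XBP1S and 5 in AAV-ATF6N, against 19.1% and 27.9% of all genes. All 9 had log2 fold changes above 0 in AAV-XBP1S, but in AAV-ATF6N 6 were above and 3 below 0. The sum of 10 endothelial markers was 739 and 1013 CPM in AAV-GFP, 1135 and 1476 CPM in AAV-XBP1S, and 681 and 630 CPM in AAV-ATF6N. It was thus above the controls in AAV-XBP1S and below them in AAV-ATF6N. The sum of 10 macrophage markers was 26.1 and 29.2 CPM in AAV-GFP, 39.3 and 36.2 CPM in AAV-XBP1S, and 34.9 and 33.5 CPM in AAV-ATF6N. Lymphocyte markers summed to at most 1.34 CPM in any library. Of the defining genes, the endothelial Pecam1 had 71.8 and 125 CPM in AAV-GFP, 143 and 180 CPM in AAV-XBP1S, and 88.1 and 80.7 CPM in AAV-ATF6N. The fibroblast collagen gene Col1a1 had 20.0 and 39.0 CPM in AAV-GFP, 42.4 and 65.6 CPM in AAV-XBP1S, and 73.6 and 69.9 CPM in AAV-ATF6N. The leukocyte gene Ptprc stayed between 0.366 and 1.53 CPM, and the T cell gene Cd3e was at or near 0 in every library. The sum of 8 smooth muscle and pericyte markers was 872 and 802 CPM in AAV-GFP. It was 973 and 905 CPM in AAV-XBP1S and 1011 and 996 CPM in AAV-ATF6N, above the controls in both treated groups. By gene, all 8 had log2 fold changes above 0 in AAV-XBP1S, but in AAV-ATF6N 4 were above and 4 below 0. The sum of 4 epicardial markers was 4.74 and 5.30 CPM in AAV-GFP, 6.13 and 5.28 CPM in AAV-XBP1S, and 9.27 and 9.78 CPM in AAV-ATF6N, where alone it lay above both controls in both libraries. The sum of 4 Schwann cell markers was 3.39 and 2.62 CPM in AAV-GFP, 3.98 and 6.56 CPM in AAV-XBP1S, and 4.60 and 3.72 CPM in AAV-ATF6N, again above both controls in every treated library. Erythroid markers summed to 277 and 130 CPM in AAV-GFP, 106 and 69.7 CPM in AAV-XBP1S and 41.7 and 40.7 CPM in AAV-ATF6N, and Hba-a1 and Hba-a2 were at 0 throughout. In these lists 1 gene was called, the erythroid Alas2, lower in AAV-ATF6N. The 10 cardiomyocyte markers, Myh6 and Tnnt2 among them, summed to 118444 and 104792 CPM in AAV-GFP, 93417 and 94744 CPM in AAV-XBP1S, and 127723 and 126944 CPM in AAV-ATF6N, so the labelled cell type was present in all 6 libraries. The sum was thus below the controls in AAV-XBP1S and above them in AAV-ATF6N. By gene, 2 of the 10 had log2 fold changes above 0 and 8 below 0 in AAV-XBP1S. In AAV-ATF6N 4 were above and 6 below 0, so the sum there did not hold for most of the list.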

How the data were processed

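Polyadenylated RNA from the sorted heart muscle cells gave 6 sequencing libraries. The labels name the SMART-Seq v4 and Nextera XT kits, and a description names SMART-Seq2. The authors deposited raw read counts per gene, for which the submitters' processing notes name STAR, featureCounts and the build mm10. No source used here gives their versions or the strand setting. Results tables deposited by the authors for each treated group hold, per the file headers, a mean normalized signal, log2 fold changes, 2 columns of scores (standard error and test statistic) and p-values.

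Genes were filtered with filterByExpr (count minimum 10), normalized with TMM and fitted to the 6 libraries jointly, with group as sole term, by edgeR's quasi-likelihood test (edgeR 4.0.16, R 4.3.3), two-sided, with Benjamini-Hochberg adjustment over 14587 genes and a threshold of 0.05. The fit had 3 residual degrees of freedom. An SE is the size of the log2 fold change divided by the square root of F. Exact permutation with 2 libraries a group reaches 33.3% at best, so it was not used. Alternatives were DESeq2 1.42.0, DESeq2 size factors, no filter, a replicate block, the compared groups alone and each library left out. The fits were tested on simulated data. All 6 count columns were used, and 0 were left out.

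The 46 genes, their roles, the further lists of mitosis, S phase and G1 control genes, and the marker lists of endothelium, fibroblasts, macrophages, lymphocytes, smooth muscle and pericytes, erythroid cells, epicardium, Schwann cells, cardiomyocytes and sex chromosomes were chosen with earlier results of these data known. Of 225 listed genes 224 were in the table. Full statistics were given for genes called in any comparison, for the 10 mitosis and 6 S phase genes of smallest p in AAV-XBP1S, and for all G1 cyclins and CDK inhibitors. From the further lists the called genes were named, with the 2 genes of smallest p in each direction in AAV-XBP1S. Of the marker lists, where the rule gave the first 2 genes of each, fewer were named, chosen after their values were seen, and the other genes were given as sums. Promoters came from RefSeq, and no protein sequence was used here.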

Additional observations from a re-analysis of the deposited data

How the results depend on the processing

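The numbers of calls moved with the processing, and the cause was not tested. For AAV-XBP1S, AAV-ATF6N and the direct comparison in this order, 46, 75 and 33 genes and 6, 5 and 0 of the 46 cell cycle genes were called. DESeq2 called 520, 595 and 839 genes with 25, 20 and 1 of the 46. Without a filter on low counts it was 233, 348 and 458 with 21, 19 and 1. With only the groups compared it was 13, 8 and 663 with 0, 0 and 2. DESeq2 size factors left 6, 5 and 0. With the replicate number as a block 165, 237 and 356 genes were called with 16, 16 and 1 of the 46. The numbers were not taken as pairs, since deviations of same-numbered libraries correlated at 0.663 between AAV-GFP and AAV-XBP1S but at -0.110 and -0.132 for AAV-ATF6N with AAV-GFP and with AAV-XBP1S.

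Leaving out each library in turn gave 2 to 322, 6 to 3055 and 1 to 717 genes, with 0 to 20, 0 to 28 and 0 to 2 of the 46, where a lone library is assumed to vary like the other groups. The median log2 fold change of the mitosis genes ran from 2.70 to 3.15 in AAV-XBP1S and from 2.23 to 2.60 in AAV-ATF6N, and that of the S phase genes in AAV-XBP1S from 0.62 to 1.12. The sign of some log2 fold changes, none of them called, turned in these fits. In AAV-XBP1S Ccnd2 ran from -0.26 to 0.26, Cdkn1b from -0.73 to 0.45 and Cdkn1c from -0.61 to 0.17. In AAV-ATF6N Ccnd1 ran from -0.70 to 0.65, Cdkn1a from -0.64 to 0.14 and Tyms from -0.21 to 1.10. In the direct comparison Top2a ran from -0.29 to 0.40, Prc1 from -0.58 to 0.14, Cdc6 from -0.76 to 0.29 and Spag5 from -0.48 to 0.079. Counting limits the folds of the scarcest mitosis genes, such as Spag5 with 4 counts in AAV-GFP.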
